A study of Mus musculus with 21 samples.

Results

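Histone lysine demethylases remove methyl groups from lysines of the histone tails, and 10 of their genes were followed here through mouse preimplantation development: Kdm1a, Kdm1b, Kdm4a, Kdm4b, Kdm4c, Kdm4d, Kdm4dl, Kdm5a, Kdm5b and Kdm6b. Long-read transcripts of all stages merged were assigned to GENCODE vM21 genes by overlap of exons on the same strand, and the value of a gene is the summed TPM (transcript abundance scaled to a fixed library total) of its transcripts. Of the 10 genes, 7 had at least 1 of the 22612 merged transcripts, together 11 transcripts, against 10917 genes with a transcript in all. Kdm4b, Kdm4d and Kdm6b had no merged transcript on their strand and therefore have no value. Kdm4dl is the gene that the study chose for a loss-of-function experiment because its level rose from the 1-cell to the 2-cell stage in these libraries, so its levels are described here without a test of that rise.

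The samples were pooled gametes and embryos, with 2 short-read libraries for each of 7 stages and 1 long-read pool per stage mixed from both batches. Sperm came from the epididymis of DBA/2J males by the titles, while the protocol names DBA/2N. Oocytes arrested at metaphase II were taken 20 h after human chorionic gonadotropin (hCG) from C57BL/6J females aged 3 to 5 weeks, which had received 7.5 IU of pregnant mare serum gonadotropin and, 48 h later, 7.5 IU of hCG. Embryos from the cross of such females with DBA/2 males were flushed from the oviduct and grown in KSOM medium to the 1-cell (24 to 26 h after hCG), 2-cell (46 to 48 h), 4-cell (54 to 58 h), 8-cell (68 to 70 h) and blastocyst stage (94 to 96 h). All libraries were made from RNA amplified as cDNA, and no gene was targeted in them. Read totals of the short-read libraries are listed in the study and were not used here, and how many reads lie behind a single TPM value cannot be recovered from it. Because TPM is a share of the RNA in a pool, a change in a gene and a change in the rest of the RNA, or in the number of cells, cannot be told apart.

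The enzymes fall into families by what they remove. Kdm1a (LSD1) and Kdm1b (LSD2) are flavin-dependent amine oxidases that demethylate lysine 4 of histone H3, and Kdm1b is needed in growing oocytes to establish maternal DNA methylation imprints. The Kdm4, Kdm5 and Kdm6 families carry a Jumonji C domain and use iron and 2-oxoglutarate: Kdm4 enzymes act mainly on trimethylated lysine 9 of H3, Kdm5 enzymes on trimethylated lysine 4, and Kdm6b on lysine 27. In the mouse embryo, broad domains of trimethylated lysine 4 inherited from the oocyte are lost around the 2-cell stage, when transcription of the embryonic genome begins, and Kdm5a and Kdm5b are known to act on them.

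Kdm4dl lies beside Kdm4d on chromosome 9 and is annotated as an unprocessed pseudogene. The annotated Kdm4dl transcript (chr9:14450836-14452022, minus strand, GRCm38) is 1187 bases long, and 1001 of its bases align with the Kdm4d mRNA (Kdm4d-201), of which 91.5% are identical. Its longest stretch without a stop codon in a forward frame covers 1185 bases and runs in the coding frame of Kdm4d within the longest ungapped block of the alignment (770 bases). These 120-base windows, taken from the start of that block, are shown because they contrast stretches where the copies differ and where they cannot be told apart, and capitals mark the 9 bases that differ.

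Kdm4d (chr9:14464247-14464366, minus strand): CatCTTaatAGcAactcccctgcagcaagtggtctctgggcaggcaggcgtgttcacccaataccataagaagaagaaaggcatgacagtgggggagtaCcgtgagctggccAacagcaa

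Kdm4dl (chr9:14451733-14451852, minus strand): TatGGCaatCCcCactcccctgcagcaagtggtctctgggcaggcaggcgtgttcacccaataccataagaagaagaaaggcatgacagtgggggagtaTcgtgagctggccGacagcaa

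The differences are gathered at the ends of this window, and the middle is the same in both genes. Of the 1157 stretches of 31 bases in annotated Kdm4dl, 422 (36.5%) also occur in Kdm4d and 155 in the related gene Gm9361. Since no Kdm4d transcript was among those quantified, reads of Kdm4d that match Kdm4dl could have been counted to Kdm4dl, and the values of Kdm4dl are uncertain in that way.

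The long reads reached the demethylase genes mostly in pieces. Kdm1a was the exception, with a transcript (TCONS_00014940) that held the complete chain of 20 exons of Kdm1a-202 and covered 85.8% of its bases. Kdm1b, Kdm4a and Kdm4c were each seen at the 3' end only, as exons 19 to 21 of 21 (TCONS_00005256), exon 22 of 22 (TCONS_00014756) and exons 20 to 22 of 22 (TCONS_00013853). Kdm5b gave 2 pieces, exons 1 to 6 (TCONS_00000466) and exons 14 to 27 of 27 (TCONS_00000468), and Kdm5a gave 3, exons 1 to 4 (TCONS_00017025), exons 16 to 22 (TCONS_00017026) and a stretch of the last of 28 exons with no coding base (TCONS_00017027). The Kdm4dl transcript (TCONS_00021180, chr9:14449858-14455505, minus strand) had 2 exons and 2462 bases, covered all 1187 annotated bases and 1275 bases outside them, and began 3483 bases upstream of the annotated start.

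**Figure D1:**
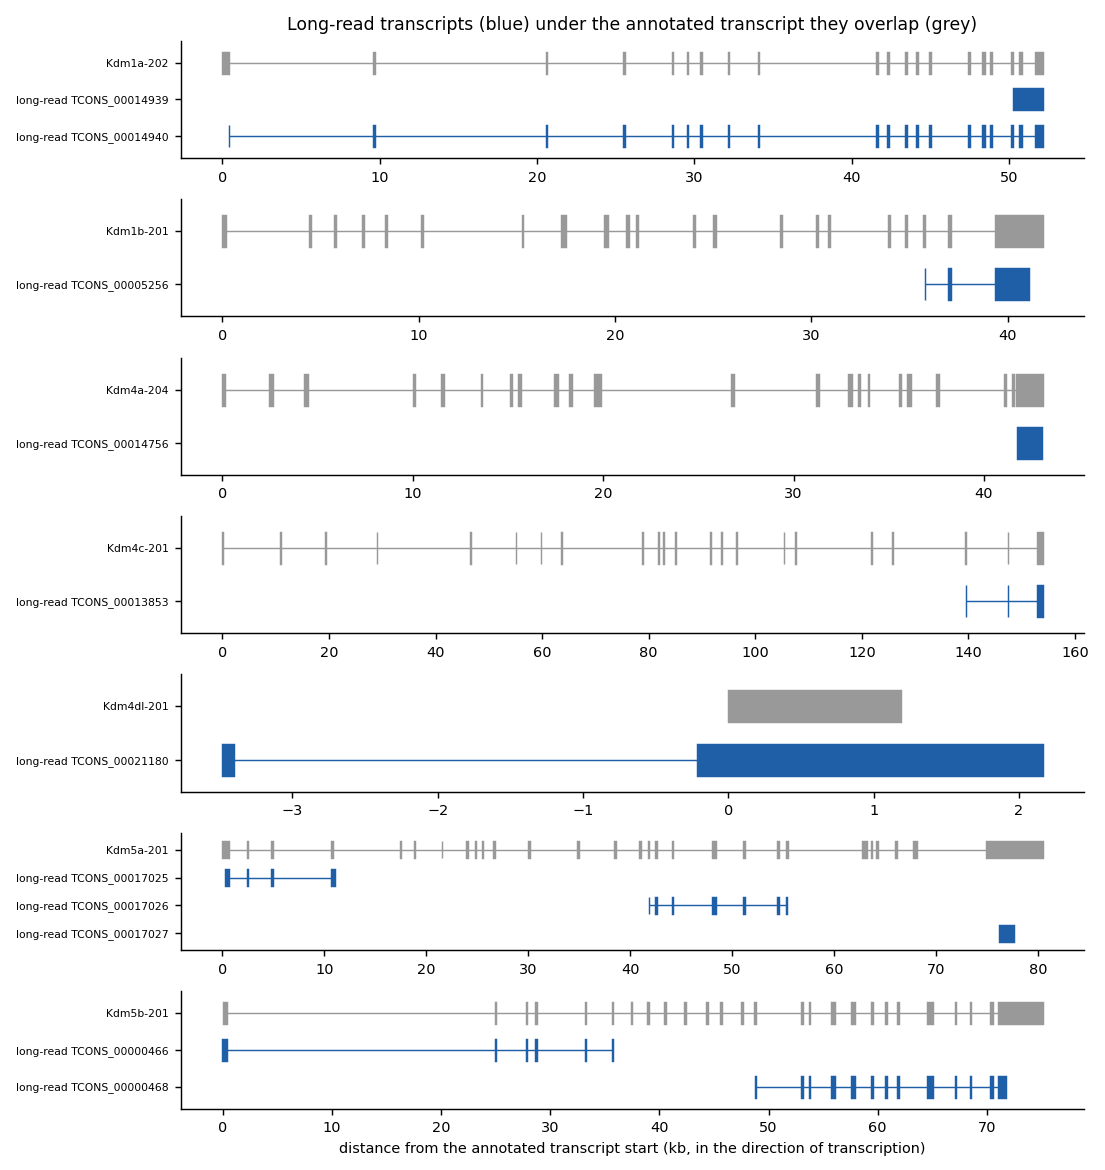
Exons of the long-read transcripts (blue boxes) drawn under the annotated GENCODE vM21 transcript they overlap (grey boxes), with thin lines for introns, against the distance from the annotated transcript start in kb. The 20-exon transcript of Kdm1a spans its gene, those of Kdm1b, Kdm4a and Kdm4c lie at the 3' end, and that of Kdm4dl extends beyond the annotated single exon on both sides.

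The stage of the pools in which these long reads appeared differed between the genes. Transcripts of Kdm1b were found in the oocyte and 1-cell pools and in none from 2-cell to blastocyst, as were those of 12.6% of the 10971 genes with a long-read transcript in any pool. The other 6 genes were found in at least 1 pool from 2-cell to blastocyst and in neither the oocyte nor the 1-cell pool, a pattern shown by 39.1% of those genes. Kdm4a and Kdm4dl came from the 2-cell pool only and Kdm4c from the 4-cell pool only. The 2-cell pool held the piece of Kdm5a with exons 1 to 4 and the downstream piece of Kdm5b, while the upstream piece of Kdm5b first came from the 4-cell pool. With 1 pool per stage these are single observations without a replicate.

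Gene values sum the pieces of a gene, several for Kdm5a and Kdm5b, so levels of different genes cannot be compared strictly. By this sum Kdm5b, a demethylase of trimethylated lysine 4 of H3 that is also known as Jarid1b, had the highest mean level of the 7 genes at 2-cell, although Kdm5a was above it in replicate 2. Its level was 0.576 and 0.167 TPM in the oocyte libraries (in this and the following sentences replicate 1 is given first), 0.920 and 0.761 at 1-cell, 399 and 77.1 at 2-cell, 162 and 99.6 at 4-cell, 129 and 153 at 8-cell, and 20.9 and 83.6 at blastocyst. Every library from 2-cell onwards was thus above every oocyte and 1-cell library, although the 2-cell replicates lay far apart. The change from 1-cell to 2-cell was 6.59 ± 0.85 (SE) on the log2(TPM + 1) scale, with an adjusted p of 0.000179 in limma. Kdm5b passed the filter of 1 TPM only through libraries from 2-cell on, where it was high, so this call is a description. In sperm the level was 16.5 and 45.1 TPM.

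Kdm5a (Rbp2), the close relative of Kdm5b, was likewise low up to 1-cell and higher from 2-cell on. It was at 1.29 and 0.847 TPM in oocytes, 1.38 and 0.959 at 1-cell, 38.3 and 93.9 at 2-cell, 104 and 131 at 4-cell, 56.3 and 37.5 at 8-cell, and 52.1 and 37.7 at blastocyst. Oocyte and 1-cell did not differ beyond their spread, and all later libraries were above them. The change from 1-cell to 2-cell was 4.82 ± 0.68 (adjusted p = 0.000256). Sperm had 29.1 and 89.7 TPM.

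Kdm4c, which acts on methylated lysine 9 of H3, was listed at 0 in both oocyte libraries and at 0 and 0.051 TPM at 1-cell. It then had 3.18 and 7.73 TPM at 2-cell, 32.0 and 29.6 at 4-cell, 6.6 and 3.92 at 8-cell, and 5.53 and 1.46 at blastocyst. The 4-cell libraries stood above all others. The change from 1-cell to 2-cell was 2.56 ± 0.64 (adjusted p = 0.00775), and its size depended on the scale, with 5.37 for a pseudocount of 0.1 and 1.5 after quantile normalization. It was no longer called when either 1-cell library was left out (adjusted p = 0.0506 without replicate 1 and 0.0525 without replicate 2) or with the spread weighted by stage (0.0616). The next step, 2.40 ± 0.64 from 2-cell to 4-cell, had an adjusted p of 0.0532 and the step from 4-cell to 8-cell, -2.38 ± 0.64, one of 0.0800, so neither was called.

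**Figure D2:**
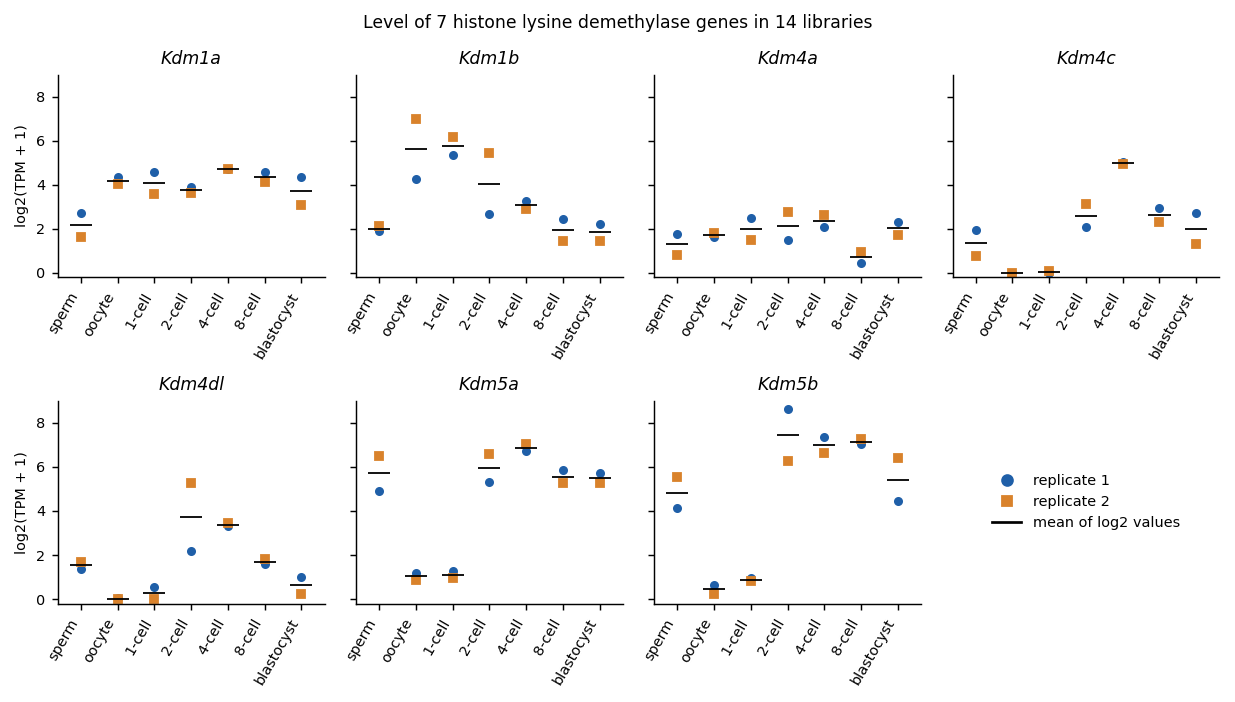
Level of each of the 7 measured genes as log2(TPM + 1) in the 14 short-read libraries by stage, with circles for replicate 1, squares for replicate 2 and bars for the mean of the log2 values. Kdm5a, Kdm5b and Kdm4c are near 0 to 1.4 TPM in oocyte and 1-cell libraries and higher from 2-cell on, Kdm1b goes the other way, and Kdm4dl peaks in 2-cell replicate 2 at 37.2 TPM.

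Kdm4dl had 0.022 and 0 TPM in oocytes and 0.450 and 0 at 1-cell. It was at 3.56 and 37.2 TPM at 2-cell, 8.96 and 9.95 at 4-cell, 2.01 and 2.48 at 8-cell, and 1.01 and 0.191 at blastocyst, while sperm had 1.61 and 2.23. The 2-cell replicates bracket the 4-cell values, so the order of these stages is not set by the data, whereas all 8-cell and blastocyst values lie below them. Over the transcripts of the 2-cell pool alone the 2-cell level was 3.45 and 34.5 TPM. The log2 change was 3.45 ± 0.78 from 1-cell to 2-cell, a description only since the gene was chosen for it.

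Over the 12 libraries from oocyte to blastocyst, the genes most like Kdm4dl were Lck (Pearson's r of log2(TPM + 1) = 0.988), Gm13698 (0.988) and Hesx1 (0.984), the highest of 9145 genes ranked. These points share libraries and stages, and the 2 libraries of a stage are not independent of the stage. Lck, a tyrosine kinase of T cells, had 4.63 and 44.6 TPM at 2-cell, Gm13698 had 13.7 and 157, and Hesx1, a homeobox repressor, had 4.66 and 47.3. All 3 were listed at 0 in both oocyte libraries and shared the distance between the 2-cell replicates. Among the demethylases, r with Kdm4dl was 0.80 for Kdm4c, 0.77 for Kdm5a, 0.66 for Kdm5b, 0.39 for Kdm4a, 0.17 for Kdm1a and -0.14 for Kdm1b.

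The 2-cell libraries differed in more than these genes. Replicate 2 held a summed 549 TPM of the 6 measured 2-cell markers (of 7, among them the Zscan4 genes) and 1298 TPM of the 7 oocyte markers, against 23.3 and 112 TPM in replicate 1. That 2-cell marker sum of replicate 1 lay below both 1-cell libraries (45.1 and 28.4 TPM) and near 4-cell (19.6 and 22.8). Tcstv1 made up most of the 1-cell sums (38.3 and 22.5 TPM), and each other measured 2-cell marker was higher in 2-cell replicate 1 than at 1-cell. The oocyte marker sum of replicate 1 lay below both 4-cell libraries (151 and 155 TPM). Kdm4dl and Kdm1b were higher in replicate 2 and Kdm5b was higher in replicate 1. The correlation of log2(TPM + 1) across genes between the replicates was 0.739 at 2-cell, the lowest, and 0.983 at 4-cell, the highest. How far the difference between the 2-cell libraries enters the values of the demethylases was not tested.

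From 1-cell to 2-cell, 3 of the 6 measured members other than Kdm4dl were called higher (Kdm4c, Kdm5a and Kdm5b) and 0 lower, at an adjusted p under 0.05 in limma over 10000 genes. In this transition 26.1% of all genes tested were called higher and 6.2% lower, and the median change of all genes was 0.72 on the log2 scale. All 7 measured members reached 1 TPM in at least 2 of the 12 libraries and so were tested, but Kdm4c, Kdm4dl and Kdm5b did so only through libraries from 2-cell on. The calls of Kdm4c and Kdm5b, here and from oocyte to blastocyst, are therefore descriptions. After quantile normalization 15.9% of all genes were called higher and 17.6% lower. Kdm1b, with a change of -1.69 ± 1.00 (adjusted p = 0.213), Kdm1a, with -0.30 ± 0.69, and Kdm4a, with 0.12 ± 0.62, were not called. The direction of Kdm4a was not stable, with -0.38 without 1-cell replicate 2, -0.49 without 2-cell replicate 2 and -1.31 after quantile normalization, where it was called (adjusted p = 0.0324). Without 2-cell replicate 2, Kdm1b was called, with a change of -3.09 (adjusted p = 0.0238).

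Among single transcripts, 6 of 9 tested transcripts of members other than Kdm4dl were called higher at 2-cell, where 22.9% of the 20250 transcripts tested were. They were all 5 pieces of Kdm5a and Kdm5b and the transcript of Kdm4c, which passed the filter of 1 TPM through libraries from 2-cell on, where they were high, so their number is a description. After quantile normalization 12.9% of all transcripts were called higher and 15% lower. The piece of Kdm5b with exons 14 to 27 rose from 0.353 and 0.294 TPM to 46.0 and 52.1 (5.24 ± 0.68, adjusted p = 0.000646). The piece with exons 1 to 6 rose from 0.567 and 0.467 to 353 and 25.0 TPM (5.98 ± 1.17, adjusted p = 0.00319). The distance between the 2-cell replicates of Kdm5b thus lay in the upstream piece, which took 88.5% of the TPM of the gene in replicate 1 and 32.5% in replicate 2.

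Kdm5a had its closest 2-cell replicates in the piece with exons 1 to 4, at 26.7 and 31.5 TPM, up from 0.739 and 0.416 at 1-cell (4.26 ± 0.66, adjusted p = 0.00112). This transcript stands on the study's own list of transcripts raised at 2-cell, which was made from these libraries and is no independent evidence. The piece with exons 16 to 22 went from 0.646 and 0.379 to 5.66 and 20.5 TPM (adjusted p = 0.00856). The piece within the last exon went from 0 and 0.164 to 5.89 and 42.0 TPM (adjusted p = 0.0161). Its call was lost without 1-cell replicate 1 (0.0858), 1-cell replicate 2 (0.0777) or 2-cell replicate 2 (0.0968) and with the spread weighted by stage (0.104), and that of exons 16 to 22 without 1-cell replicate 2 (0.0619). When only the 4 libraries of the transition entered the fit, 0 of the 9 transcripts were called, with adjusted p of 0.113 to 0.145 for the 5 pieces.

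**Figure D3:**
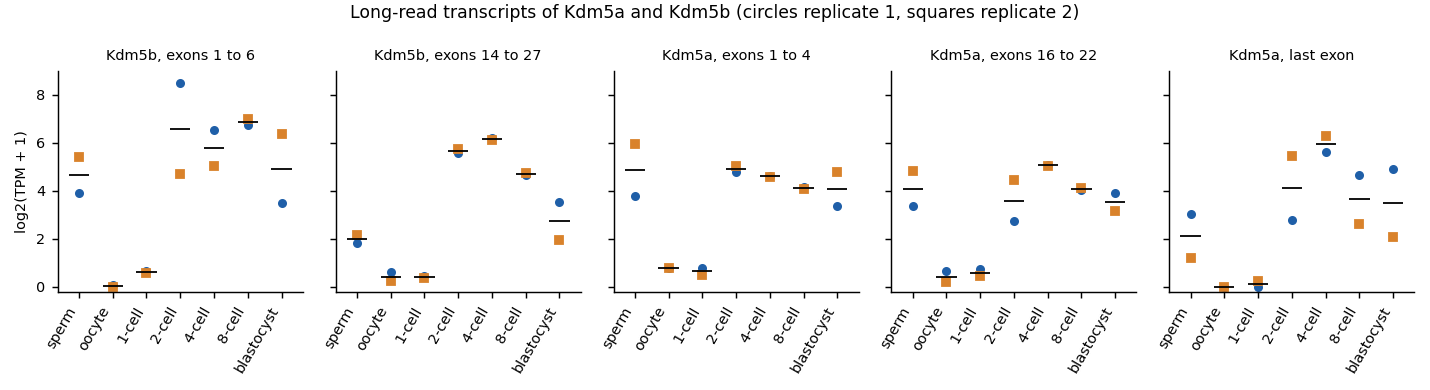
Level of the 5 long-read transcripts of Kdm5a and Kdm5b as log2(TPM + 1) in each library by stage (circles replicate 1, squares replicate 2, bars the mean of the log2 values). All 5 are at 0 to 0.739 TPM in the oocyte and 1-cell libraries, and the 2-cell replicates agree for exons 14 to 27 of Kdm5b (46.0 and 52.1 TPM) but not for exons 1 to 6 (353 and 25.0 TPM).

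The start of the upstream Kdm5b transcript lay 33 bases upstream of the annotated gene start and within the promoter window that RefSeq coordinates give (300 bases around the RefSeq start, most of them before it, on GRCm38.p6). Windows were found for Kdm1a, Kdm1b, Kdm4a, Kdm4c, Kdm4d and Kdm5b. The windows of Kdm5b and Kdm1b are shown because these genes had opposite courses, and capitals mark GC boxes, searched as GGGCGG on both strands.

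Kdm5b (chr1:134559928-134560227, plus strand): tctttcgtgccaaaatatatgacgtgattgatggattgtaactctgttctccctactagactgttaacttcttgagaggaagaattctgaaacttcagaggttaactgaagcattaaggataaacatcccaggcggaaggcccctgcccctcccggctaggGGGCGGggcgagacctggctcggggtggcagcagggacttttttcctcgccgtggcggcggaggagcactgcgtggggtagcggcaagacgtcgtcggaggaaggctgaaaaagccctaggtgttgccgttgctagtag

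Kdm1b (chr13:47043249-47043548, plus strand): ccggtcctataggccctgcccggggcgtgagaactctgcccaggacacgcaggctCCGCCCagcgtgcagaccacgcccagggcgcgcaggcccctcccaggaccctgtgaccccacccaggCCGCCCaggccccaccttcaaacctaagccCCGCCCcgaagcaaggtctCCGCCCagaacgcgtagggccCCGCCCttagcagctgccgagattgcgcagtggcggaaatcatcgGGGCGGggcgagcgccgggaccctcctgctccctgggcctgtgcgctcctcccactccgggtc

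The Kdm5b window held 1 GC box and the Kdm1b window 6, in letters that are 54.7 and 72.3% G or C. A GC box occurred in 35.7% of the 32851 windows of all genes. Neither window held a CCAAT box (CCAAT, in 37.4% of all windows) or a TATA box (TATAAA, in 13.6%). These matches describe the letters and not the binding of a factor.

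Kdm1b was the only one of the 7 measured members that was called lower at blastocyst than in the oocyte. Its level was 17.9 and 127 TPM in oocytes, 39.2 and 69.9 at 1-cell, 5.28 and 42.3 at 2-cell, 8.63 and 6.37 at 4-cell, 4.42 and 1.71 at 8-cell, and 3.71 and 1.73 at blastocyst. From the oocyte to the 2-cell stage the libraries overlapped, and all values from 4-cell on lay below all oocyte and 1-cell values. The change from oocyte to blastocyst was -3.78 ± 1.00 (adjusted p = 0.00559). Without oocyte replicate 2 it was -2.40 (adjusted p = 0.0912) and no longer called. That library also held the higher summed level of the 7 oocyte markers, 16691 against 5191 TPM. Gdf9 made up most of both sums (15568 and 4176 TPM), and of the other 6 markers Oosp1 (249 against 653 TPM) and Zp2 (11.2 against 26.0) were lower there.

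Over the same span, Kdm5a (4.46 ± 0.68, adjusted p = 0.00011) and Kdm5b (4.99 ± 0.85, adjusted p = 0.000278) were higher at blastocyst. Kdm4c was called higher too (adjusted p = 0.0159), with no fold given since it was listed at 0 in oocytes, and lost the call without oocyte replicate 1 (0.0678), oocyte replicate 2 (0.0654) or blastocyst replicate 1 (0.135). From oocyte to blastocyst 35.4% of the 10000 genes were called higher and 18% lower, beside 3 and 1 of the 7 measured members, and the median change of all genes was 0.82. After quantile normalization these shares were 26.6 and 26.4%. Kdm1a, Kdm4a and Kdm4dl were not called.

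Kdm1a, the catalytic partner of the CoREST complex, lay between 7.54 TPM in blastocyst replicate 2 and 25.2 TPM in 4-cell replicate 2 in all 12 libraries from oocyte to blastocyst. Kdm4a, which acts on lysines 9 and 36 of H3, stayed under 6 TPM, with its lowest values at 8-cell (0.376 and 0.907 TPM), 1.85 and 5.68 at 2-cell and 3.21 and 5.17 at 4-cell. Neither Kdm1a nor Kdm4a was called in any of the 6 comparisons from oocyte to blastocyst. Kdm4a rests on a piece of the last exon and on low values, for which small changes could not be detected.

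The other transitions gave no call in the members. From oocyte to 1-cell 0 of the 7 were called by limma, where 0.38% of all genes were. An unadjusted p under 0.05 was found for 0 of them and for 9.2% of all genes. From 2-cell to 4-cell 0 were called, where 3.4% of all genes were. An unadjusted p under 0.05 was found for 1 (Kdm4c) and for 24.5% of all genes. From 4-cell to 8-cell 0 were called, where 1.67% of all genes were. An unadjusted p under 0.05 was found for 3 (Kdm4a, Kdm4c and Kdm4dl, all lower at 8-cell) and for 15.7% of all genes. The fit on the 4-cell and 8-cell libraries alone called 4 and that with the spread weighted by stage called 5. The share of all genes called in these settings was not counted, so these numbers are no result about the members. From 8-cell to blastocyst 0 were called, where 3% of all genes were. An unadjusted p under 0.05 was found for 0 of them and for 14.4% of all genes.

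**Figure D4:**
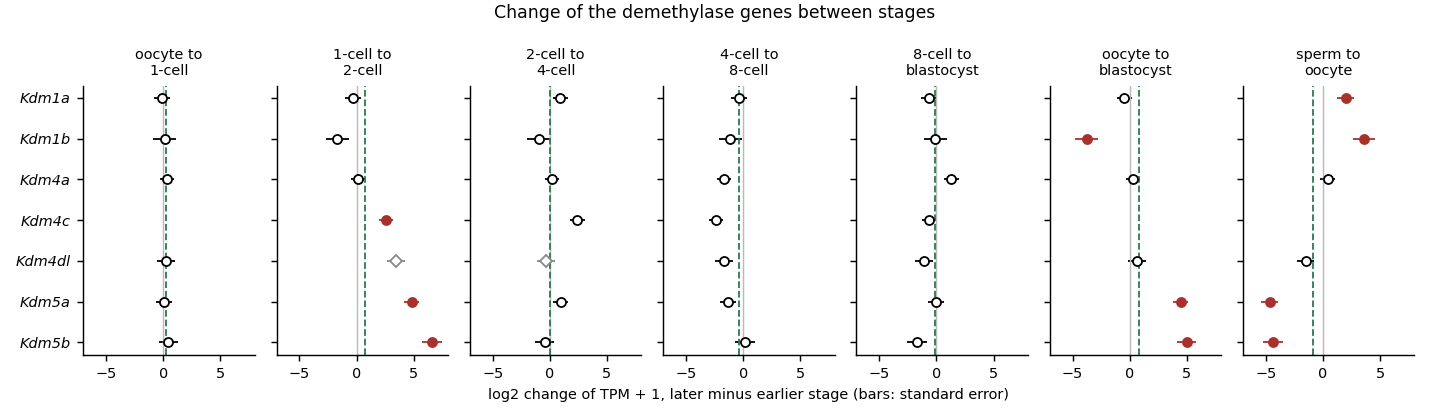
Change of each measured gene in 7 comparisons on the log2(TPM + 1) scale, later minus earlier stage, with bars for the standard error. Filled points had an adjusted p under 0.05, grey diamonds mark Kdm4dl where its 2-cell values enter, dashed lines give the median of all genes tested, and Kdm4c is left out against the oocyte, where it was listed at 0. The filled points are Kdm4c, Kdm5a and Kdm5b from 1-cell to 2-cell, Kdm1b, Kdm5a and Kdm5b from oocyte to blastocyst, and Kdm1a, Kdm1b, Kdm5a and Kdm5b from sperm to oocyte.

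Between sperm and oocyte, Kdm1a, Kdm1b, Kdm5a and Kdm5b were called, and Kdm4a, Kdm4c and Kdm4dl were not. Kdm5b reached 1 TPM in no oocyte library and passed the filter only through libraries where it was high, so its call is a description. In a fit of all 14 libraries Kdm1a (2.00 ± 0.74, adjusted p = 0.0307) and Kdm1b (3.62 ± 0.97, adjusted p = 0.00492) were higher in the oocyte, and Kdm5a (-4.67 ± 0.76, adjusted p = 9.24e-05) and Kdm5b (-4.39 ± 0.89, adjusted p = 0.000598) were higher in sperm. Of 10735 genes tested 17.4% were called higher and 36.2% lower in the oocyte, beside 2 and 2 of the 7 measured members, and the median change of all genes was -0.90. After quantile normalization these shares were 26.8 and 26.6%. Kdm1a had 5.66 and 2.12 TPM in sperm and 19.5 and 15.2 TPM in oocytes, and Kdm1b had 2.67 and 3.36 TPM in sperm. The sperm pool gave a single-exon long read of Kdm1a (TCONS_00014939) that ran into an intron, at 1.15 and 0.632 TPM in sperm and 0 in both oocyte libraries.

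The call of Kdm1a was lost without sperm replicate 2 (adjusted p = 0.128), oocyte replicate 1 (0.121) or oocyte replicate 2 (0.0701), in the fit on the sperm and oocyte libraries alone (0.115) and with the spread weighted by stage (0.112). That of Kdm1b was lost without sperm replicate 1 (0.0607) or oocyte replicate 2 (0.103). The sperm libraries also held RNA of other cells: the 5 measured of 6 leukocyte and epididymis markers summed to 8256 and 1875 TPM, among them Lyz2 with 6151 and 1519 TPM, against 0.495 to 13.8 TPM in the other 12 libraries. Kdm5a and Kdm5b were higher in sperm replicate 2, where these markers were lower. The sum of the 7 blastocyst markers was also higher in replicate 2 (177 and 737 TPM), and it includes the epithelial keratins Krt8 (48.4 and 288) and Krt18 (101 and 306). Their part in the sperm values was not tested.

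To place the members among related genes, 3 lists were examined, of which only genes with a merged transcript have a value. Of all genes tested 26.1% were called higher and 6.2% lower from 1-cell to 2-cell. Riox1, Kdm3a, Kmt5c, Kmt5b, Suv39h1, Ehmt2 and Hdac1 were among the listed genes called higher. These reached 1 TPM in at least 2 libraries only with libraries from 2-cell on, where they were high, so the counts are descriptions. Calls of these genes from oocyte to blastocyst are descriptions for the same reason. From sperm to oocyte they passed only with sperm libraries or those from 2-cell on, and those calls are descriptions too. From 1-cell to 2-cell, 3 of 7 other demethylases with a value (of 15 listed) were called higher and 0 lower, with a median change of 0.01 against 0.72 over all genes. They were Riox1, a nucleolar Jumonji oxygenase (0 and 0.18 TPM at 1-cell, 109 and 10.8 at 2-cell, 5.06 ± 0.85, adjusted p = 0.000688), Kdm3a, a demethylase of mono- and dimethylated lysine 9 of H3 (4.57 ± 0.77, adjusted p = 0.000682), and Riox2. Kdm3a had 1.09 and 0.35 TPM at 1-cell and 19.3 and 77.7 at 2-cell, and it is also on the study's list of raised transcripts. Riox2 lost its limma call after quantile normalization (adjusted p = 0.189) and in the fit on the 4 libraries (0.264). The same held with the spread weighted by stage (0.215), a replicate block (0.0622) or a pseudocount of 0.1 (0.0544). Its change was 1.16 without 1-cell replicate 2 and 1.51 without 2-cell replicate 1.

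Kdm6a (Utx) and Kdm7a were the other demethylases called lower from oocyte to blastocyst, like Kdm1b. Kdm7a, which acts on lysines 9 and 27 of H3, had the larger fall, from 13.2 and 13.1 TPM to 2.26 and 0.64 TPM (-2.62 ± 0.83, adjusted p = 0.0163). Kdm6a, a demethylase of lysine 27, went from 141 and 344 TPM to 69.6 and 19.5 TPM (-2.54 ± 1.01, adjusted p = 0.0455). Without oocyte replicate 1, oocyte replicate 2 or blastocyst replicate 2 neither was called, with adjusted p of 0.0651, 0.0626 and 0.109 for Kdm7a and 0.0550, 0.229 and 0.290 for Kdm6a. In this comparison 3 of the 7 were called higher and 2 lower, where 35.4% of all genes tested were called higher and 18% lower. Kdm3a had the largest rise that has a fold (3.12 ± 0.77, adjusted p = 0.00345), since Riox1 was listed at 0 in oocytes.

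Of the histone lysine methyltransferases, which add the marks, 6 of 18 with a value (of 23 listed) were called higher from 1-cell to 2-cell and 0 lower, with a median change of 1.39. The shares of all genes tested were 26.1 and 6.2%. Kmt5c, an enzyme of lysine 20 of histone H4, was listed at 0 in both 1-cell libraries and had 20.8 and 26.0 TPM at 2-cell. Suv39h1, which trimethylates lysine 9 of H3, had 0.36 and 0.97 TPM at 1-cell and 49.9 and 17.0 TPM at 2-cell (4.21 ± 0.79, adjusted p = 0.00143). From oocyte to blastocyst 4 were called higher and 3 lower, against 35.4 and 18% of all genes tested. The largest rise was that of Ehmt2 (G9a), from 0.50 and 0.14 to 37.4 and 72.8 TPM (5.35 ± 0.65, adjusted p = 2e-05), and the largest fall that of Suv39h2, from 436 and 165 to 3.91 and 5.71 TPM (-5.55 ± 0.93, adjusted p = 0.000234).

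Of the partners of Kdm1a and Kdm1b, 3 of 7 with a value (of 10 listed) were called higher from 1-cell to 2-cell and 0 lower, against 26.1 and 6.2% of all genes tested. The partners had a median change of 1.80. The largest rise was that of Hdac1, a histone deacetylase of the CoREST complex, from 3.01 and 0.89 to 27.8 and 52.3 TPM (3.83 ± 0.74, adjusted p = 0.00171), followed by the scaffold Rcor2 (3.75 ± 0.90, adjusted p = 0.00614) and the reader Phf21a. Rcor2 had 102 and 12.1 TPM in the 2-cell replicates and was not called by limma after quantile normalization (adjusted p = 0.134). Its change was 3.14 without 1-cell replicate 1. Phf21a was not called by limma after quantile normalization (adjusted p = 0.360) or with the spread weighted by stage (0.163). Its change was 2.46 without 1-cell replicate 1, 1.64 without 1-cell replicate 2 and 1.75 without 2-cell replicate 2. The fit on the 4 libraries of this transition called 0 of the 7 partners. From oocyte to blastocyst Hdac1 (5.51 ± 0.74, adjusted p = 4.34e-05) and Glyr1, a cofactor of Kdm1b, were called higher and 0 lower, against 35.4 and 18% of all genes tested. Glyr1 was not called by limma after quantile normalization (adjusted p = 0.208), in the fit on the 4 libraries (0.119) or under the junction rule (0.248). It also lost the call with the spread weighted by stage (0.0757), a replicate block (0.0578) or no filter (0.0506). Its change was 1.46 without oocyte replicate 1, 2.42 without oocyte replicate 2 and 1.08 without blastocyst replicate 1.

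**Figure D5:**
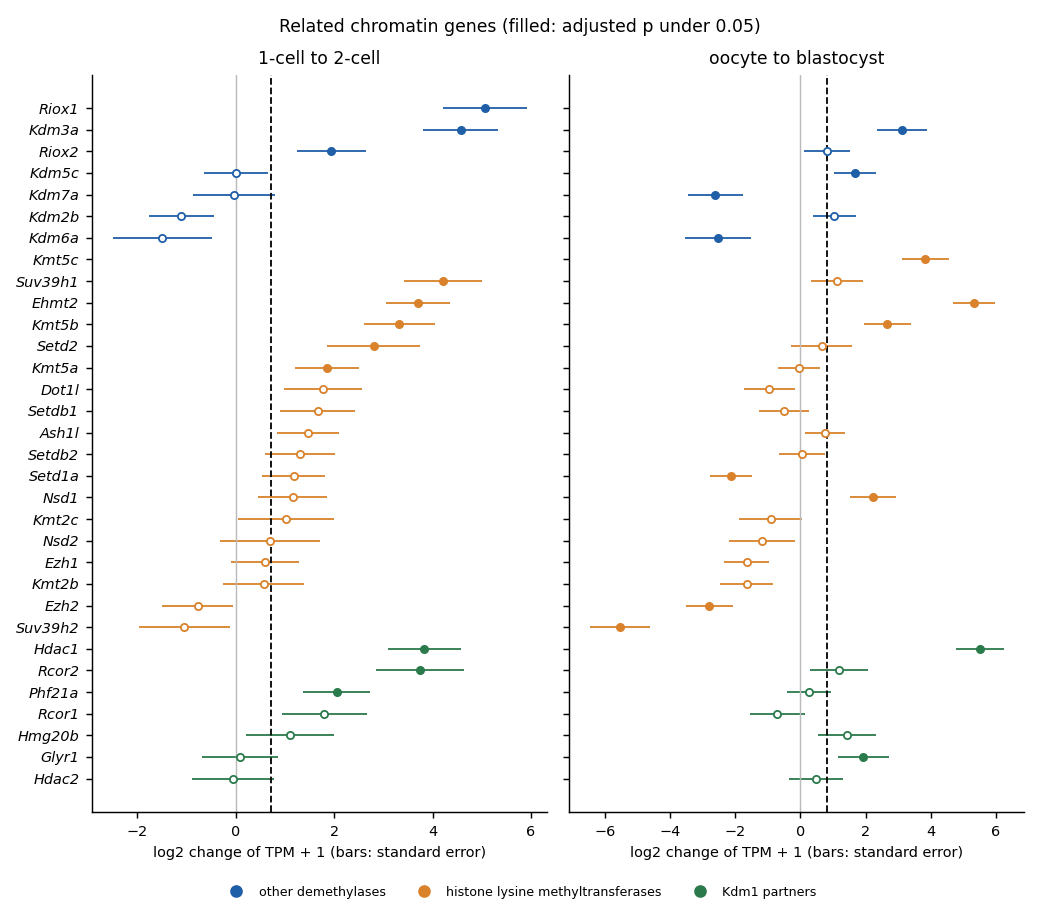
Change of the other demethylases (blue), histone lysine methyltransferases (orange) and partners of Kdm1 enzymes (green) on the log2(TPM + 1) scale from 1-cell to 2-cell and from oocyte to blastocyst, with bars for the standard error. Filled points had an adjusted p under 0.05, dashed lines give the median of all genes (0.72 and 0.82), and Kmt5c and Riox1 are left out against a stage where they were listed at 0. Ehmt2 and Hdac1 lie far to the right and Suv39h2 far to the left from oocyte to blastocyst.

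From sperm to oocyte each list had genes called in both directions, where 17.4% of all genes tested were called higher in the oocyte and 36.2% lower. Of the other demethylases 1 was called higher in the oocyte (Kdm6a, 3.83 ± 1.01, adjusted p = 0.00432, but 0.0709 without sperm replicate 1) and 2 lower, with the larger fall in Kdm3a (-2.85 ± 0.78, adjusted p = 0.0057). Of the methyltransferases 6 were higher, led by Suv39h2 (5.23 ± 0.92, adjusted p = 0.000187), and 3 lower, led by Ehmt2 (-5.57 ± 0.69, adjusted p = 8e-06). Of the partners 2 were higher, led by Hdac2 (3.47 ± 0.85, adjusted p = 0.0026), and 2 lower, led by Phf21a (-2.96 ± 0.72, adjusted p = 0.00248). In the 4 remaining transitions limma called 0 of the 32 genes with a value, and 13 of the 128 tests had an unadjusted p under 0.05. Of all genes tested, 9.2, 24.5, 15.7 and 14.4% had such a p in these transitions, in order of stage.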

How the data were processed

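Long reads and paired short reads were made from amplified cDNA of pooled gametes and embryos. The authors aligned long reads to mm10 with GMAP, collapsed them by stage, merged the stages with Cuffmerge and deposited exon coordinates. For both the merged transcripts and those of each stage, the authors ran salmon on the short reads and deposited TPM values.

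Merged transcripts were assigned to GENCODE vM21 genes (on GRCm38, which mm10 also is; vM20 is named in the study) by same-strand exon overlap: 18333 of 22612 had a gene. Gene sums were compared with limma 3.58.1 (R 4.3.3) on log2(TPM + 1), with genes at 1 TPM or more in at least 2 libraries, stage as the only term, and Benjamini-Hochberg over all genes per comparison. The 12 libraries from oocyte to blastocyst shared a fit, and sperm entered a fit of all 14. This scale understates the change of low genes. The method was tested on simulated data in which a gene had the same spread in all stages, unlike in these libraries. The 2 libraries of a stage came from 2 batches of samples. The p-values rest on the spread between batches, pooled for each gene over all stages of the fit. The median SD of log2(TPM + 1) between replicates was 1.04 at 2-cell and 0.19 at 4-cell. The p-values of comparisons with 2-cell can therefore understate the spread there.

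The members and lists were chosen with earlier results of these data known. Named from the lists are the called genes with the largest rise and fall, and for Kdm4dl the 3 genes of highest r among those at 5 TPM or more in at least 2 libraries; Riox2, Rcor2, Glyr1, Kdm6a and genes named to complete a count were chosen after their values were seen. Sequences came from GENCODE and RefSeq (GRCm38.p6). Alternatives were a pseudocount of 0.1, other filters, quantile normalization, a fit on 4 libraries, a spread weighted by stage (arrayWeights), a replicate block, a junction rule, TPM over the stage's own transcripts, and each library left out. The paper's comparisons on raw reads and its knockout embryos were not analysed here.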

Additional observations from a re-analysis of the deposited data

How the results depend on the processing

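With 2 libraries per stage, the spread between batches limits every call. The quantile normalization called 1 member between 2-cell and 4-cell (Kdm4c) and 1 between 4-cell and 8-cell. The junction rule called 1 between 2-cell and 4-cell. Between 4-cell and 8-cell the fit on the 4 libraries called 4 and the spread weighted by stage 5. The share of all genes called was not counted for these settings, so the counts are no result about the members. The fit on the 4 libraries called 0 transcripts from 1-cell to 2-cell. The cause was not tested for any of these. Quantile normalization brought the medians of all genes near 0. It turned Kdm4a to -1.31 between 1-cell and 2-cell and called it higher in the oocyte than in sperm (2.2, adjusted p = 0.00156), and no other alternative called Kdm4a in either comparison. It also moved the share of calls that were higher from 86.8 to 55.6% between oocyte and 1-cell, 46.5 to 56.7% between 2-cell and 4-cell and 46.1 to 69.3% between 4-cell and 8-cell.

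A library left out leaves a stage with a lone library, assumed to vary like the others. The number of members called then ran from 2 to 4 between 1-cell and 2-cell, 0 to 1 between 2-cell and 4-cell, 0 to 0 in the other adjacent embryo comparisons, 2 to 4 between oocyte and blastocyst, and 2 to 4 between sperm and oocyte, while 3 to 6 transcripts were called between 1-cell and 2-cell. The lowest count from oocyte to blastocyst and from sperm to oocyte came without oocyte replicate 2, and that of transcripts without 1-cell replicate 2. Among the member changes recomputed, those of Kdm1a (-0.80 to 0.19) and Kdm4a (-0.49 to 0.73) between 1-cell and 2-cell and of Kdm4a (-0.067 to 0.88) between sperm and oocyte changed direction, and none was called without a library. Of 21 changes named for the related genes 0 changed direction in any alternative and 8 lost their call in at least 1. Over the alternatives the change from 1-cell to 2-cell ran from 4.10 to 5.58 for Kdm5a and from 5.41 to 7.76 for Kdm5b. From oocyte to blastocyst it ran from 3.29 to 5.27 and from 3.90 to 6.63. From sperm to oocyte it ran from -5.48 to -3.56 and from -6.01 to -3.44. Kdm5b reached 1 TPM in no oocyte or 1-cell library and passed the filter only where it was high, so its values are a description.

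The replicate numbers do not pair the samples: deviations of same-numbered libraries correlated from -0.55 to 0.48 over 15 pairs of stages, with 5 over 0.1. The replicate block called 3 members from 1-cell to 2-cell, 4 from oocyte to blastocyst and 4 from sperm to oocyte, the counts of the fit without it.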

Other observations

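Kdm6b had no merged transcript on its strand, but a single-exon long-read transcript on the opposite strand (TCONS_00002820, chr11:69399022-69399331, 310 bases) lay whole within the last of the 23 exons of Kdm6b-201, past the coding bases. Its TPM was 7839 and 19388 in oocytes, 10095 and 780 at 1-cell, 175 and 6912 at 2-cell, 463 and 511 at 4-cell, 3092 and 2569 at 8-cell, and 2315 and 6023 at blastocyst. Sperm had 407 and 13901 TPM. The replicates differed widely in 5 of the 7 stages and lay close only at 4-cell and 8-cell. The cDNA was amplified without a mark of strand, so from the short reads these values cannot be told apart from those of Kdm6b, and they were counted to neither gene.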
